A study of Saccharomyces cerevisiae with 6 samples.

Results

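The 9 genes for the cyclins of the yeast cell division cycle, the G1 cyclins CLN1, CLN2 and CLN3 and the B-type cyclins CLB1 to CLB6, were examined for binding of the transcription factor Rap1 while cells ran out of histone H4. The genes were taken by name, 9 of the 6002 protein-coding genes on the nuclear chromosomes of the R64 assembly. A listed Rap1 peak was assigned to a gene if it shared at least 1 bp with the coding span or with the 1000 bp before the coding start. Rap1 was measured by ChIP-seq, in which DNA fragments crosslinked to the protein are recovered with an antibody and sequenced, in the budding yeast Saccharomyces cerevisiae. The strain used, UKY403, makes histone H4 in galactose and stops doing so in dextrose, and its cultures were taken from galactose and collected after 0, 2 and 4 h in dextrose. The 6 samples formed 3 groups of 2 biological replicates, all of this strain, and the isogenic control strain UKY412 was not analysed here.

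Time in dextrose, the change of sugar and the loss of H4 run together in these groups and cannot be told apart. Each time point was represented by 1 list of peaks, so there was no spread between replicates, no test over samples was possible, and every comparison below is a description of the 3 lists. The lists of 1212, 2438 and 4073 peaks at 0, 2 and 4 h were called from 983197, 1483679 and 2327099 tags left once duplicates were removed, so the later lists could reach weaker sites. A peak's height is the number of extended tags at its summit, and its fold enrichment is that height relative to the local background of the same list. Both are the authors' values for that peak, and fold enrichments were compared only within a list.

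Rap1 is best known as an activator of ribosomal protein genes and as a protein of telomeres. Cyclins bind and steer the cyclin-dependent kinase Cdc28, and their genes are switched on in turn. Cln3 acts first, in G1, and helps to release the transcription of CLN1 and CLN2, whose products commit the cell to division. Clb5 and Clb6 then start DNA replication, Clb3 and Clb4 act in S phase and at spindle formation, and Clb1 and Clb2 drive mitosis. CLN1 and CLN2, CLB1 and CLB2, CLB3 and CLB4, and CLB5 and CLB6 are pairs of related genes. Cells that lose H4 arrest after S phase, and the cell cycle position of the sampled cultures was not measured here.

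Before H4 was shut off, no cyclin gene had a Rap1 peak in its coding span, and 4 had one upstream. The coding count was 0 of 9 genes at 0 h, when 10.1% of all protein-coding genes had a coding peak. It was 1 of 9 at 2 h (CLB4) against 26.8% of all genes, and 3 of 9 at 4 h (CLB2, CLB3 and CLB4) against 43.3%. Every one of these coding peaks was new, sharing no base with a 0 h peak. New coding peaks were present in 18.5% of all genes at 2 h and in 36.1% at 4 h, so the cyclin counts of 1 and 3 of 9 do not stand above the genome. None of the 3 G1 cyclin genes had a coding peak at any time. Longer genes have more room for a peak, and the cyclin spans run from 1143 to 1743 bp. Among the 1437 genes with spans in this range, 9.05, 28.9 and 48.2% had a coding peak at 0, 2 and 4 h, and 20.6 and 43.3% a new one at 2 and 4 h.

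The number of cyclin genes with an upstream peak was 4 of 9 at each time, but the genes were not the same. They were CLN1, CLN3, CLB2 and CLB6 at 0 h, CLN1, CLN3, CLB4 and CLB6 at 2 h, and CLN1, CLN3, CLB3 and CLB4 at 4 h. Over all genes an upstream peak was present in 24.4, 32.6 and 44.5% at 0, 2 and 4 h, against 44.4% of the cyclin genes at each time, level at 4 h. The 0 h excess rests on CLB2 and CLB6, whose peaks had -log10 q below 5. With a -log10 q of at least 5 the 0 h count was 2 of 9 (22.2%), level with the 22.6% of all genes at that limit. The 2 h count at that limit was also 2 of 9, below the 30.8% of all genes. Counting either place, 4, 4 and 5 of 9 cyclin genes had a peak, against 28.9, 46.8 and 64.2% of all genes. CLN1 and CLN3 alone had an upstream peak at all 3 times, 2 of 9 genes against 21.2% of all genes.

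**Figure D1:**
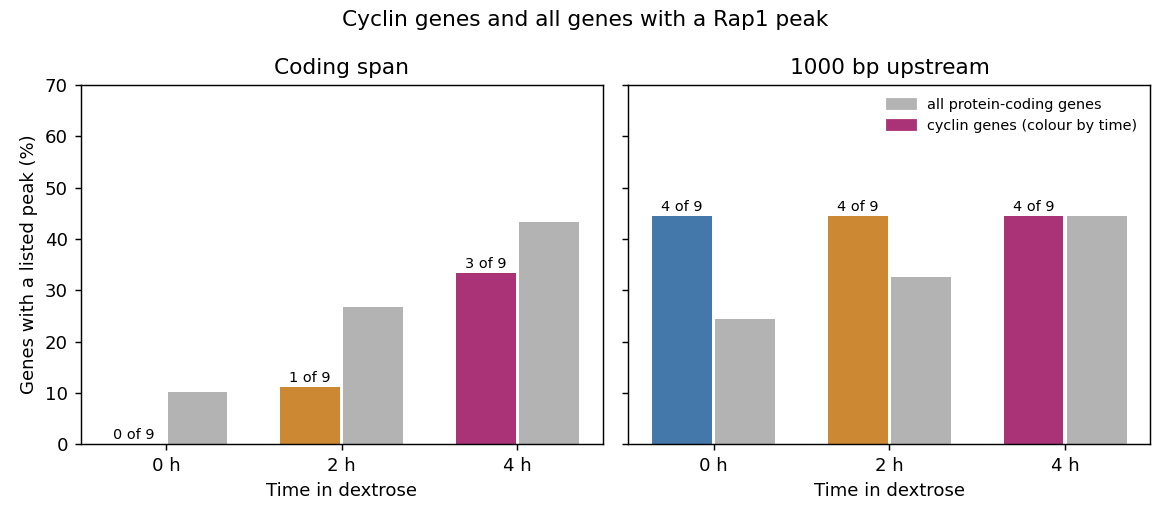
Share of genes (%) with a listed Rap1 peak in the coding span (left) and in the 1000 bp upstream (right) at 0, 2 and 4 h; coloured bars are the 9 cyclin genes with their counts, grey bars all 6002 protein-coding genes. The coding count goes from 0 to 3 of 9 as the grey bars go from 10.1 to 43.3%, and the upstream count is 4 of 9 at each time.

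**Figure D2:**
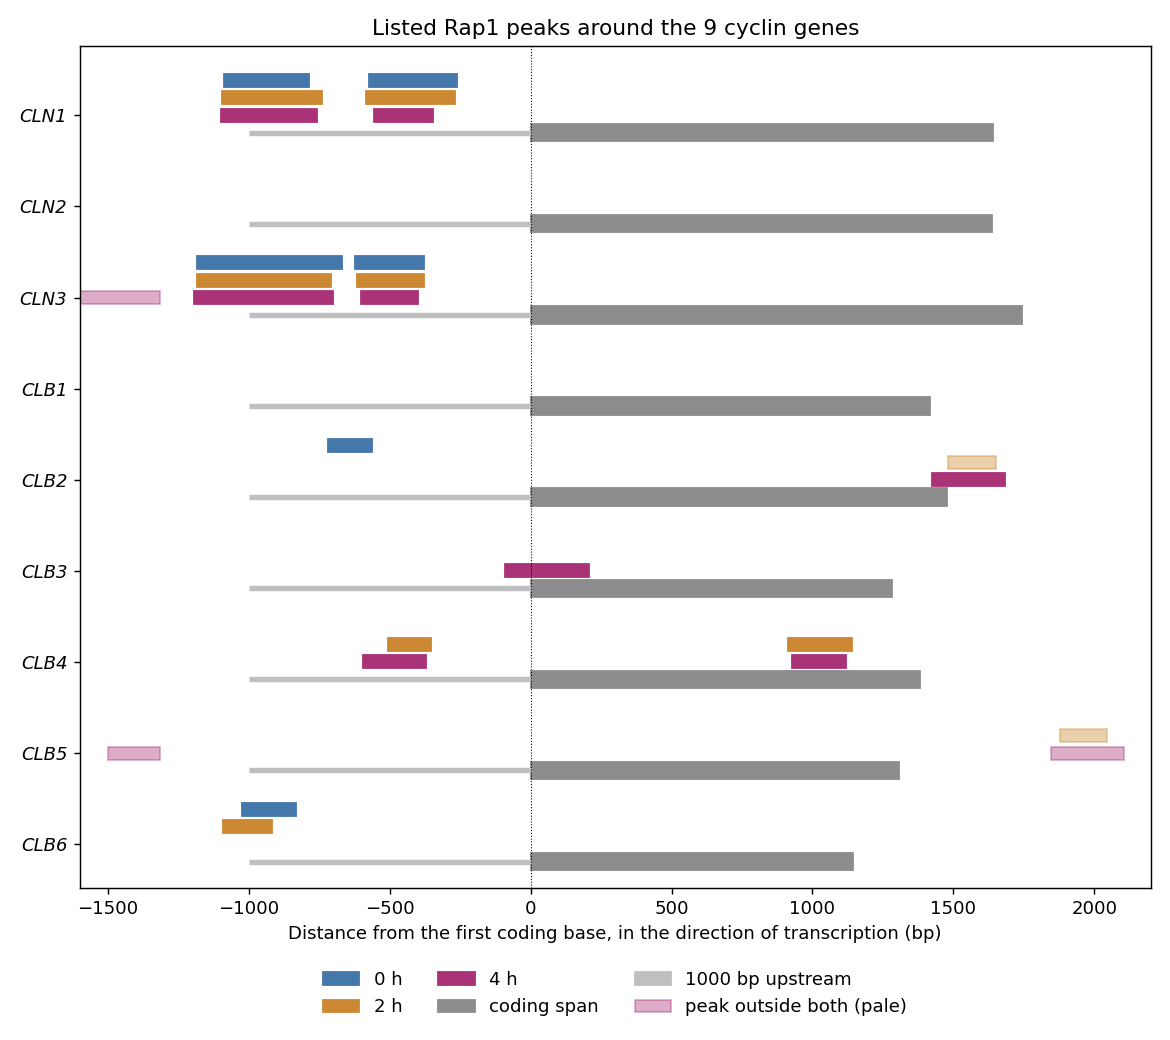
Listed Rap1 peaks around each cyclin gene, drawn to scale by distance (bp) from the first coding base; bars in 3 colours are the peaks of the 3 lists, pale bars are peaks outside the coding span and the upstream window, and grey shows the coding span and the window. CLN1 and CLN3 carry 2 upstream peaks in every list, CLN2 and CLB1 no peak in the range plotted. The peaks nearest to CLB1, at least 1961 bp from its coding span, lie beyond the edges of the plot. The coding peaks of CLB2, CLB3 and CLB4 appear in the later lists.

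CLN1, which encodes a G1 cyclin (chromosome XIII, 662644 to 664284, plus strand), had 2 upstream sites that were listed at every time. The far site had its summit 971 bp before the coding start at 0 h, 970 bp at 2 h and 953 bp at 4 h, with fold enrichments of 6.40, 3.99 and 5.42 and heights of 81, 74 and 156. The near site had its summit 395, 490 and 481 bp before the coding start, with fold enrichments of 3.67, 2.82 and 2.11 and heights of 46, 52 and 60. The far site was thus the higher of these sites in each list, by a height ratio of 1.76 at 0 h, 1.42 at 2 h and 2.60 at 4 h. Both lie in the 1114 bp between CLN1 and the gene before it on the same strand, CIK1, which encodes a kinesin-associated protein, and no summit fell in a coding span. At 4 h the near site was weak. When its height and background were divided by the ratio of kept tags to 0 h, its -log10 p of 3.74 fell just short of 3.75, the value of the weakest 0 h peak.

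CLN3, the gene of the cyclin that acts at the entry into the cycle (chromosome I, 65778 to 67520, minus strand), held the strongest Rap1 peak of the 9 genes in each list. Its far site had the summit 912 bp before the coding start at 0 h and 916 bp at 2 and 4 h, with fold enrichments of 10.1, 7.47 and 5.56 and heights of 246, 259 and 275. These folds were higher than 71.2% of the 0 h list, 81.8% of the 2 h list and 82.1% of the 4 h list, counting ties by their average rank. The near site had the summit 484, 484 and 485 bp before the coding start, with fold enrichments of 3.71, 2.96 and 2.19 and heights of 89, 101 and 107. Summit positions therefore moved by at most a few bases, and the far site was 2.76, 2.56 and 2.57 times as high as the near one at 0, 2 and 4 h. The sites share the 1195 bp between CLN3 and CYC3, which encodes the enzyme that attaches haem to cytochrome c and lies before CLN3 on the same strand. The local background at CLN3 was 23.3 to 23.5 tags at 0 h, against 11.8 at CLN1, the lowest background of that list, so equal heights give lower folds at CLN3.

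CLN2 (chromosome XVI, 64977 to 66614, minus strand), the related partner of CLN1, had no Rap1 peak in its coding span or upstream window in any list. The nearest listed peak was 7446 bp from its coding span at 0 h, 4171 bp at 2 h and 4161 bp at 4 h. At 4 h 2.98% of all genes were at least this far from a peak, against 18.2% at 0 h and 11.4% at 2 h for the distances of those lists. Its upstream space of 1110 bp, shared with the divergent gene BBP1 of the spindle pole body, is about as long as that of CLN1. A missing peak means only that no site there passed the caller's threshold at this depth.

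The arrangement at CLN1 and CLN3, with at least 2 separate upstream peaks in all 3 lists, was found at 36 of all 6002 genes (0.6%). The description was chosen after these values were seen, and it says nothing about whether the sites act together. Long intergenic regions offer more room. Among the 713 genes with no other annotated gene in the 1000 bp window, 36% had an upstream peak at all 3 times and 1.4% had at least 2. Of the cyclin genes 5 have such a free window, CLN1, CLN2, CLN3, CLB1 and CLB2. With a window of 500 bp only the near site of CLN1 and of CLN3 is counted, and with tags scaled to the 0 h depth the near site of CLN1 drops out at 4 h.

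Scaled to the same number of kept tags, 1000000, the heights of these sites were lower in the later lists than at 0 h. At the far site of CLN3 they were 250.2, 174.6 and 118.2 at 0, 2 and 4 h, and at its near site 90.5, 68.1 and 46.0. At the far site of CLN1 they were 82.4, 49.9 and 67.0, lowest at 2 h, and at its near site 46.8, 35.0 and 25.8. Only 1 tag was kept per position and strand, and the tallest peak had a height of 292 in each list. Whether this limit lowers the scaled heights of tall peaks was not tested. Lower scaled heights at later times were common elsewhere. Over the 1007 sites with a peak in all 3 lists, the median ratio to 0 h was 0.768 at 2 h and 0.601 at 4 h, and 79.2% were lower at 4 h. For the 309 sites with 0 h heights from 200 to 292 the medians were 0.691 and 0.439, beside 0.698 and 0.472 for the far site of CLN3. For the 76 sites with heights from 75 to 100 they were 0.810 and 0.672, beside 0.752 and 0.508 for the near site of CLN3 and 0.605 and 0.814 for the far site of CLN1. For the 204 sites with heights from 40 to 60 they were 0.963 and 0.954, with 52.0% of sites lower at 4 h, beside 0.749 and 0.551 for the near site of CLN1. Sites listed at 0 h but missing from a later list are not in these medians, which can raise them, most of all for low peaks. The ratios of single sites carry counting error and no replicate error, and the share of tags kept (40.4, 30.6 and 37.8%) differs between the lists, whose part in these ratios was not tested.

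**Figure D3:**
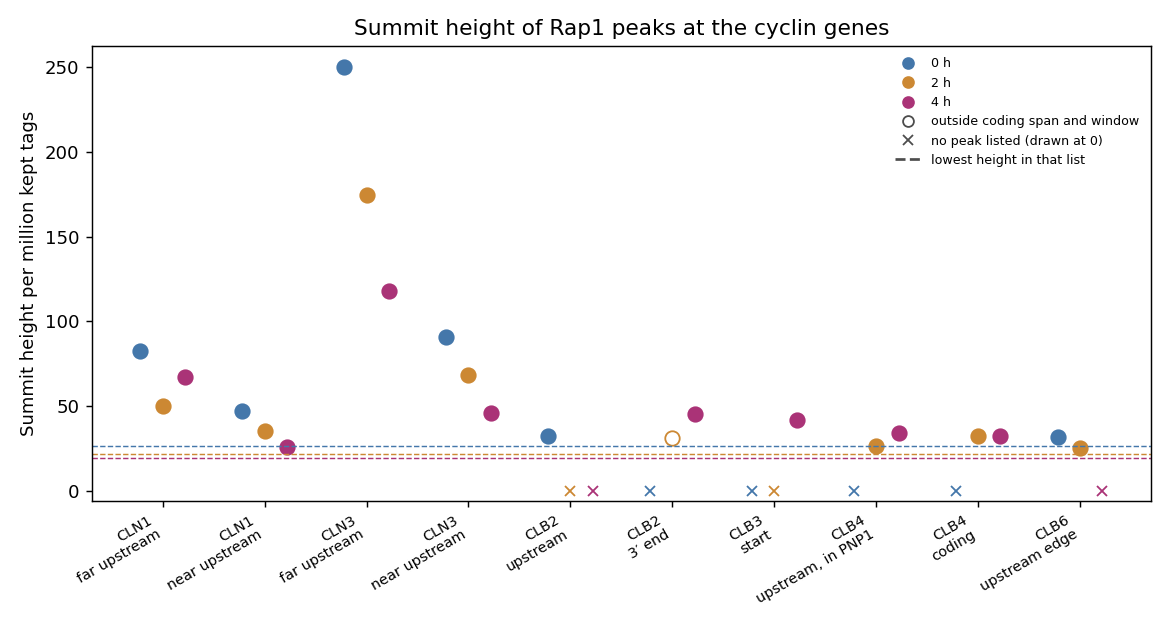
Summit height per 1000000 kept tags of each Rap1 site assigned to a cyclin gene in at least 1 of the 0, 2 and 4 h lists; the open circle (CLB2 at 2 h) lies outside the coding span and upstream window, crosses mark sites with no listed peak, and dashed lines are the lowest height of each list (26.4, 21.6 and 19.3). The far site of CLN3 stands highest at each time, from 250.2 at 0 h to 118.2 at 4 h, and the B-type cyclin sites plotted lie between 24.9 and 45.6.

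Of the S-phase cyclin genes, CLB6 had a weak peak at the far edge of its window and CLB5 had none. For CLB6 (chromosome VII, 705359 to 706501, minus strand) the 0 h peak ran from 1023 to 835 bp before the coding start, with a height of 31, a fold enrichment of 2.50 and a -log10 q of 4.50. At 2 h it ran from 1092 to 918 bp, with its summit 1011 bp before the start, outside the window, a height of 37, a fold of 2.02 and a -log10 q of 3.36. At 4 h no peak was listed there, and the nearest one lay 2091 bp from the coding span with its summit inside the reading frame YGR109W-B. The CLB6 peak was among the weakest of its lists, above 9.78% of peaks at 0 h and 3.40% at 2 h by fold enrichment. A tRNA gene, YNCG0030C, lies 606 bp before CLB6. For CLB5 (chromosome XVI, 773875 to 775182, minus strand) the closest upstream peak was listed at 4 h only, 1501 to 1317 bp before the coding start and so outside the window, with a height of 73 and a fold of 2.56.

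CLB3 and CLB4 gained peaks that overlap their coding spans, across the coding start at CLB3 and inside the span at CLB4. At CLB3 (chromosome IV, 176773 to 178056, plus strand) no peak was within 17147 bp at 0 h, a distance reached by 2.95% of genes, and none within 1669 bp at 2 h. At 4 h a peak of 300 bp covered the coding start, from 92 bp before to 207 bp after it, with its summit 64 bp after the first coding base. It had a height of 97, a fold enrichment of 3.39 and a -log10 q of 22.7, and it counts both as coding and as upstream. Scaled to the kept tags of 0 h its -log10 p was 11.1, above the 3.75 of the weakest 0 h peak.

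CLB4 (chromosome XII, 562008 to 563390, plus strand) had the only coding peak of a cyclin gene at 2 h, and it was listed again at 4 h. Its summit lay 1017 bp after the first coding base at 2 h and 1021 bp at 4 h, in the last part of the span of 1383 bp. The heights were 48 and 75, the fold enrichments 2.60 and 2.63 and the -log10 q values 7.57 and 12.0. Per 1000000 kept tags the heights were 32.4 and 32.2, close to each other and above the lowest 0 h height of 26.4. The peak passed the 0 h threshold at both times when scaled by kept tags (-log10 p of 6.42 and 6.36) and by all tags (5.15 and 6.03). A second peak within the window of CLB4 had its summit 411 bp before the coding start at 2 h and 467 bp at 4 h, with folds of 2.13 and 2.76. Both summits fall inside the coding span of the divergent neighbour PNP1, which encodes a purine nucleoside phosphorylase and begins 275 bp from CLB4, so the peak is an intragenic one of PNP1 as much as an upstream one of CLB4. At 2 h it passed the 0 h threshold with kept tags (3.93) but not with all tags (3.22).

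The mitotic cyclin genes differed from each other at 0 and 4 h. CLB2 (chromosome XVI, 771653 to 773128, plus strand), the main mitotic cyclin gene, had a weak upstream peak at 0 h, 719 to 566 bp before the coding start, with a height of 32, a fold enrichment of 2.58 and a -log10 q of 4.94. No peak was listed there at 2 or 4 h. At its other end a new peak appeared. At 2 h it began 7 bp beyond the last coding base, just outside the rule, with a height of 46 and a fold of 2.50. At 4 h it had a height of 106, a fold of 3.70 and a -log10 q of 27.8 and reached 53 bp into the coding span, which is why CLB2 counts at 4 h. The summit remained outside the span, 94 bp past its end at 2 h and 64 bp at 4 h, in the 746 bp between CLB2 and CLB5, whose coding spans end toward each other. From the end of CLB5 the peak was 570 bp away at 2 h and 540 bp at 4 h. Per 1000000 kept tags its heights were 31.0 and 45.6. Counting summits only, CLB2 had no coding peak and the 4 h count was 2 of 9, against 37.1% of all genes under the same rule.

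CLB1 (chromosome VII, 703636 to 705051, plus strand), the partner of CLB2, had no peak in either place in any list. Like CLB2 and CLB5, CLB1 and CLB6 end toward each other, with 307 bp between them, and no peak was listed there. The nearest peak to CLB1 was 2284, 2034 and 1961 bp from its coding span at 0, 2 and 4 h. At 0 h it was the peak assigned to CLB6, past the end of CLB1, and at 2 and 4 h it was upstream. At 4 h 12.6% of genes were at least this far from a peak. In each of the 4 related pairs at least 1 member lacked a peak at the place and time where its partner had one. CLN1 had upstream peaks and CLN2 none, and CLB2 had an end peak at 4 h and CLB1 none. CLB4 had its coding peak at 2 h and CLB3 only at 4 h. At 4 h CLB3 had 1 peak that counts as both coding and upstream, and CLB4 had a separate peak in each place. CLB6 had an upstream peak at 0 and 2 h and CLB5 none. These places and times were picked after the values were seen. At a given place and time 10.1 to 44.5% of all genes had a peak, and how often unrelated genes differ in this way was not counted. How tags that match both copies of a pair were handled is not stated in the labels or file headers.

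**Figure D4:**
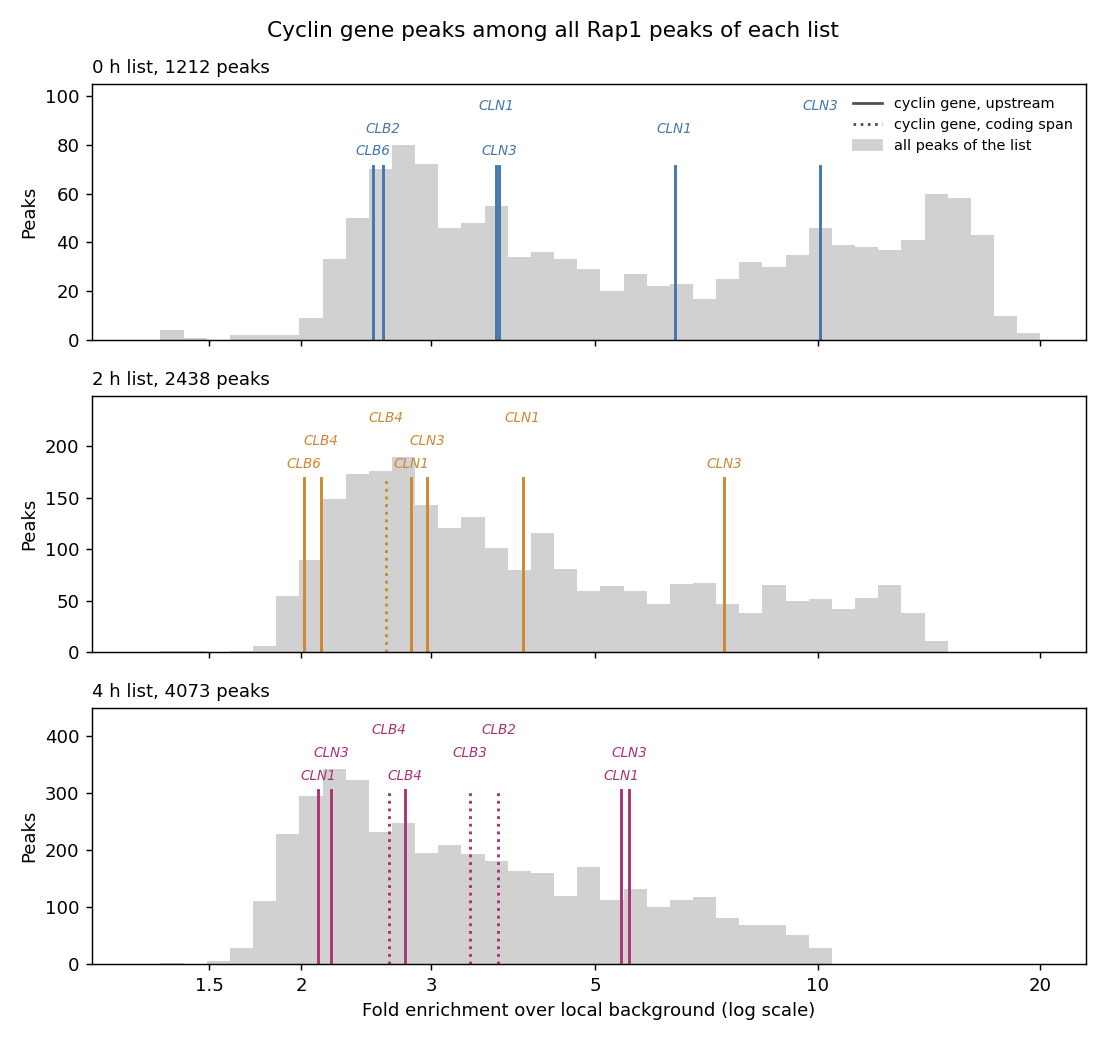
Number of peaks by fold enrichment over local background (log scale) in the 0, 2 and 4 h lists (grey), with the peaks of the cyclin genes as lines, solid for upstream peaks and dotted for peaks that overlap a coding span, the CLB3 peak across the coding start included. The far site of CLN3 lies at 10.1, 7.47 and 5.56, and every B-type cyclin peak lies below 4.

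By fold enrichment within each list, the B-type cyclin peaks were low to middling. At 0 h the peaks of CLB2 and CLB6 were above 12.5 and 9.78% of the list, and at 4 h those of CLB2, CLB3 and the coding span of CLB4 were above 61.7, 56.2 and 37.9%. Peaks covered 0% of the coding bases of the 9 genes at 0 h, 1.73% at 2 h and 3.47% at 4 h, against 1.40, 4.79 and 10.3% over all genes. Of the upstream windows they covered 15.8, 14.9 and 14.1%, against 8.63, 10.2 and 14.2%. The windows of the 3 G1 cyclin genes were covered to 36.6, 36.7 and 31.7%, all of it at CLN1 and CLN3. Those of the 6 B-type genes were covered to 5.33, 3.97 and 5.22%. All 3 G1 genes have windows free of other genes, but of the B-type genes only CLB1 and CLB2. Coverage was not compared among free windows.

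The other genes of the cell cycle machinery, 62 in 6 lists, were counted in the same way. A coding peak was listed in 3, 14 and 28 of them at 0, 2 and 4 h (4.84, 22.6 and 45.2%), against 10.1, 26.8 and 43.3% of all genes. An upstream peak was listed in 12, 16 and 27 (19.4, 25.8 and 43.5%), against 24.4, 32.6 and 44.5%. Of the 62 genes 10 (16.1%) had an upstream peak at all 3 times, against 21.2% of all genes. The counts of single lists at 4 h below stand beside the same 43.3%. At 4 h a coding peak was present in 2 of 7 genes of the Cdk and its regulators, led by FAR1 (fold 4.73), the gene of a Cdk inhibitor in the mating response, followed by the gene of the Cdk-activating kinase CAK1 (2.97). It was present in 5 of 9 genes of G1/S transcription, led by STB1 (4.25), WHI5 (3.04), which encodes the repressor that Cln3 counters, and SWI6 (2.90). Among G2/M transcription factors 4 of 9 had one, among them FKH2 (2.80) and HCM1 (2.07).

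The genes of cyclin destruction held the strongest coding peaks of these lists at 4 h. A coding peak was listed in 3, 7 and 11 of 22 at 0, 2 and 4 h, beside 10.1, 26.8 and 43.3% of all genes. CDH1, which encodes an activator of the ubiquitin ligase APC that removes mitotic cyclins, had an intragenic peak at all times. Its summit lay 1117, 1118 and 1115 bp after the coding start, with fold enrichments of 3.36, 10.7 and 9.26 within their lists. Its heights of 42, 200 and 267 were not scaled for depth, which rose from list to list. The peak at CDC20, the other APC activator gene (folds 14.4, 12.9 and 9.11), overlapped its coding span by 67 to 81 bp, with the summit outside the span. DOC1, encoding an APC subunit, had a coding peak at 2 and 4 h (5.15 and 6.70). Of 11 genes of Pho85, a kinase of nutrient signalling, and its cyclins 4 had a coding peak at 4 h. They were led by PHO85 (6.11 at 2 h and 7.55 at 4 h), ahead of PHO80 (2.31) and PCL9 (2.18). Of 4 cyclin genes of transcription 2 had one, SSN8 (3.70) and BUR2 (2.25).

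By the rank of the strongest coding peak in the 3 lists, the genes most like CLB2, the cyclin gene with the highest coding fold at 4 h, were MEF1, VMR1 and YJR154W. Each had no coding peak at 0 and 2 h and the same fold of 3.70 at 4 h, a distance of 0 over the 3 lists among 6001 genes compared. With 995 genes showing a coding peak at 4 h and not before, this likeness is coarse. It also rests on a CLB2 peak that overlaps the coding span by only 53 bp, with its summit outside the span.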

How the data were processed

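Rap1 ChIP-seq peak lists of strain UKY403 at 0, 2 and 4 h were used. The submitters' processing notes name the tools Bowtie, SAMtools and MACS2, without versions, and sacCer3 as the build. Per the file headers, MACS2 2.0.10.20130712 called the peaks without a control library, with tags extended to 147 bp, 1 tag kept per position and strand, a q cutoff of 0.05 and a regional background over 10000 bp. Whether the alignment file behind each list pools both replicates is not stated in the labels or headers. The deposited values are, per the file headers, the summit height (signal of extended tags, not scaled for depth), the fold enrichment (ratio to local background, with 1 added to both) and the -log10 p and -log10 q of each peak.

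Genes came from the RefSeq table of R64, the assembly of sacCer3, with strand read from the systematic name. Coding spans hold no untranslated regions. Local background was solved from height and fold enrichment. The Poisson p recomputed from it matched the deposited p, and was then recomputed with height and background divided by the ratio of kept tags (1.51 and 2.37 at 2 and 4 h) or all tags (1.99 and 2.53). The overlap functions were tested on simulated data. Python 3.11.15, pandas 2.3.3 and scipy 1.17.1 were used. The members, gene lists and settings were chosen with earlier results of these data known. All 9 members were named, with up to 3 genes per other list, those with the highest coding fold at 4 h; 1 of these is not reported here. The planned motif search was not run, because no sequence was used here.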

Additional observations from a re-analysis of the deposited data

How the results depend on the processing

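No paired analysis was possible because each time point has 1 list, and for the same reason no replicate could be left out. Over 10 counts of cyclin genes, 41 of 58 settings stayed within 1.5 times the main count. Percentages below are the shares of all genes under the same setting. With a fold enrichment of at least 3, coding and new coding peaks at 2 h were found at 0 members (17.8 and 10.2%) and upstream peaks at 0 and 2 h at 2 (20 and 23.8%). With -log10 q of at least 5, upstream peaks at 0 and 2 h were found at 2, CLN1 and CLN3 (22.6 and 30.8%). Scaling by all tags left 2 with an upstream peak at 2 h (30.8%). An upstream window of 500 bp left 2 at 0 h (19.7%). A window of 250 bp left 0 at 0 h (14.4%), 0 at 2 h (15.9%), 1 at 4 h (CLB3; 21.1%) and 0 at all 3 times (11.5%). At least 2 upstream peaks at all 3 times were found at 0 members with windows of 500 bp (0.1%) or 250 bp (0.0167%) or a fold of at least 3 (0.233%), and at 1 (CLN3) with tags scaled by kept (0.5%) or all tags (0.45%). The count of upstream peaks at all 3 times stayed at 2 under every other setting. The 0 h upstream peaks of CLB2 and CLB6 were weak, with -log10 p of 6.50 and 6.05 against 3.75 for the weakest peak of that list.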

Other observations

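Upstream of CLB1, outside its window, a peak with its summit inside the tRNA gene YNCG0028W was listed at all times. Its heights, not scaled for depth, were 44, 57 and 73 at 0, 2 and 4 h. Scaled to 1000000 kept tags they were 44.8, 38.4 and 31.4, lower in each later list. Another peak was also listed at all times, with its summit 2530, 2480 and 2500 bp before the coding start. Its heights were 44, 51 and 71, or 44.8, 34.4 and 30.5 when scaled. A separate peak 2116 bp before the coding start appeared at 2 h with a height of 46. At 4 h its height was 103, with its summit 2093 bp before the start and a fold enrichment of 3.59. The scaled heights of this separate peak were 31.0 at 2 h and 44.3 at 4 h. The gene before CLB1, CLB2, CLB5 and CLB6 is in each case a tRNA gene, and how tags from such repeated sequences were placed is not stated in the labels or headers.

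The 36 genes with at least 2 upstream peaks in every list include, besides CLN1 and CLN3, the transcription factor genes GCR1 and HAP1 and MET30, which encodes a ubiquitin ligase subunit. These were picked after the list was seen, and neighbouring genes that share an intergenic region count separately.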
